A study of Mus musculus with 4 samples.

Results

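Transcripts of 5 markers of mesothelium (Upk3b, Upk1b, Msln, Wt1 and Lrrn4) and of 5 keratins of simple epithelia (Krt7, Krt8, Krt18, Krt19 and Krt20) were measured in YAMC cells, a mouse line that the labels call colonocytes. These 10 genes were taken by name from the 29179 genes of the deposited table. The group was chosen by cell type marker names with the levels of these genes in the same libraries known, so the levels are given as a description with no test. RNA was sequenced from 4 cultures, 1 library for each combination of siRNA and treatment. The cells, of passages 10 to 12, were transfected with 50 nM of an siRNA to Sirt6, the gene of a deacylase in the nucleus that needs NAD, or with a control siRNA. From 48 h after transfection they were kept for 24 h with tumour necrosis factor (TNF, 100 ng/mL), an inflammatory cytokine, or in medium without it. The groups were thus Sirt6 siRNA with TNF, Sirt6 siRNA in medium, control siRNA with TNF and control siRNA in medium. All 4 shared the same handling before treatment. They were maintained at 33 °C with interferon-γ at 5 U/mL, and 24 h after transfection they were moved to 37 °C without it. YAMC cells are known as a conditionally immortalised line from mouse colon whose viral large T antigen is active under the first of these conditions and lost under the second. The sources used here do not say whether a library came from 1 well or from several.

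The mesothelium is the thin sheet of cells that lines the abdominal, pleural and pericardial cavities and covers the organs in them, the colon included. It comes from mesoderm, yet it is an epithelium, and it is known for carrying simple keratins together with vimentin, the filament protein of mesenchymal cells. Keratin filaments form from type II chains (Krt7 and Krt8 among the genes described) joined with type I chains (Krt18, Krt19 and Krt20). Colon epithelium is known for Krt8, Krt18 and Krt19 and, near its surface, for Krt20.

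The Sirt6 siRNA libraries held 21755516 reads assigned to genes (TNF) and 23749380 (medium), and the control siRNA libraries 18793708 (TNF) and 22422365 (medium). Levels are read counts scaled to library size (RPM) and between libraries by the TMM method (normalised RPM), and for a comparison between genes they are further divided by the length of the longest annotated transcript in kilobases. Sirt6 itself was at 7.03 normalised RPM with Sirt6 siRNA and TNF and 7.11 with Sirt6 siRNA in medium, against 18.8 with control siRNA and TNF and 17.1 with control siRNA in medium. All 12 genes listed as a check of the TNF response, among them the chemokine genes Cxcl1, Cxcl2, Cxcl10 and Ccl20, were at least 2-fold higher with TNF under both siRNAs. With 1 library per group there is no replicate error, so each difference below compares libraries and not conditions, and all intervals are 95% intervals of counting error only. "Rose" and "fell" are kept for genes that pass a rule of size: a 2-fold or larger ratio and an interval that does not hold 1. It was applied to the 15274 genes that reached 1 RPM in any library.

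Promoters of 6 of the 10 genes were found in RefSeq (build GRCm38.p6), and 5 are shown because the results below turn on these genes: Krt8 and Krt18 had like patterns over the libraries, Krt7 differed from both, Lrrn4 was the member with the widest range, and Upk3b had the most reads of the 10 in each library. Each line gives the 250 bases before the annotated start, read 5′ to 3′ on the gene's own strand. The windows are chr15:102004343-102004592 (minus strand), chr15:102027966-102028215 (plus strand), chr15:101412153-101412402 (plus strand), chr2:132880863-132881112 (minus strand) and chr5:136038246-136038495 (plus strand). Capitals mark a match, on either strand, to 1 of 4 motifs: the TATA box TATAAA, the GC box GGGCGG, the AP-1 site TGANTCA and the kappa-B motif bound by NF-kappa-B factors.
Krt8: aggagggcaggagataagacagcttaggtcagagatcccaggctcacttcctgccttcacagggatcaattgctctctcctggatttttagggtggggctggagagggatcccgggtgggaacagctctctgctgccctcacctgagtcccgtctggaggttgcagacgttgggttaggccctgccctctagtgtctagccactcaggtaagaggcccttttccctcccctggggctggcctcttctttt
Krt18: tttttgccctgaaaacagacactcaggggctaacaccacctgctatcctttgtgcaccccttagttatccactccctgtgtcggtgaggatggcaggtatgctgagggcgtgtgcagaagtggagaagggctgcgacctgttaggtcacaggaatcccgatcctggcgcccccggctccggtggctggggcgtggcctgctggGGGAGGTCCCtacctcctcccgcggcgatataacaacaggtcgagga
Krt7: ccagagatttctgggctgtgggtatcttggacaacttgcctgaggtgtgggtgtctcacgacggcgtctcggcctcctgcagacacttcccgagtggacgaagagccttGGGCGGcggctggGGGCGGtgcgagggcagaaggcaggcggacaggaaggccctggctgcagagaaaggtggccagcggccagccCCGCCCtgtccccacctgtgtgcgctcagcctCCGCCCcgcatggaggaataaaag
Lrrn4: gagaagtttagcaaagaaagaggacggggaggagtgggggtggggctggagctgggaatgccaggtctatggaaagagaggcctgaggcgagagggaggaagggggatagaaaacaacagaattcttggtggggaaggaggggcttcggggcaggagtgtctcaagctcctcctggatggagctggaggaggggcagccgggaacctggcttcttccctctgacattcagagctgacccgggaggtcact
Upk3b: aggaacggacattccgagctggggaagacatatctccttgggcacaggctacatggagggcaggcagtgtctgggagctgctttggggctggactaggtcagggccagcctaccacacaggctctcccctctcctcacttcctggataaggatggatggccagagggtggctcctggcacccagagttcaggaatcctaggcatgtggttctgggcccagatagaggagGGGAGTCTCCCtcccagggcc

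The Krt7 window held 4 GC boxes, 19, 51, 123 and 136 bases before the start, and none of the other 3 motifs. The Krt18 window held 1 kappa-B match, 38 bases before the start. In Upk3b the capitals are 2 kappa-B matches, 1 on each strand, that overlap in all but their end bases. No match to the 4 motifs was found in the windows of Krt8 and Lrrn4, and the window of Krt20, not printed, held 1 TATAAA. Among 32817 promoter windows of this length 32.7% held GGGCGG, 12.4% TATAAA, 7.25% a kappa-B match and 6.75% TGANTCA. A match describes letters in this window and not a bound site. Krt8 and Krt18 lie close together on chromosome 15, on opposite strands, and in the GENCODE annotation the gene model Gm36026 comes between them in order of position.

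Of the mesothelial markers, Upk1b had the highest level per kilobase of the 10 genes. Upk1b encodes a tetraspanin of the uroplakin family, membrane proteins first known from bladder epithelium. Its level was 504 RPM per kilobase with Sirt6 siRNA and TNF, 534 with Sirt6 siRNA in medium, 463 with control siRNA and TNF and 491 with control siRNA in medium. These values placed it at rank 158 of 27928 genes with a known length. Upk3b, another uroplakin that is also known as a mesothelial marker, was at 300.0, 394, 284 and 355 RPM per kilobase in the same order of libraries. It was lower in each TNF library than in the medium library with the same siRNA. Msln, which encodes the surface glycoprotein mesothelin, lay within a narrow range, at 249 and 250.1 RPM per kilobase with Sirt6 siRNA (TNF, then medium) and at 232 and 248 with control siRNA (TNF, then medium).

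Wt1, a zinc finger transcription factor of the developing kidney, gonad and mesothelium, was at 69.9 RPM per kilobase with Sirt6 siRNA and TNF, 80.4 with Sirt6 siRNA in medium, 59.4 with control siRNA and TNF and 72.3 with control siRNA in medium. Its counts of 4610, 5974, 3438 and 5057 reads in that order leave little counting error. Lrrn4, a leucine-rich repeat membrane protein known as a mesothelial marker in mouse, was at 27.4 RPM per kilobase with Sirt6 siRNA and TNF, 55.2 with Sirt6 siRNA in medium, 22.9 with control siRNA and TNF and 48.3 with control siRNA in medium. Both TNF libraries were well below both medium libraries, and the groups did not overlap.

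Among the keratins, 3 stood at like levels and 2 stood apart. Krt19, a short type I keratin, was at 303 RPM per kilobase with Sirt6 siRNA and TNF, 350.2 with Sirt6 siRNA in medium, 264 with control siRNA and TNF and 335 with control siRNA in medium. Krt18, the usual type I partner of Krt8, was at 217, 302, 299 and 426 RPM per kilobase in the same order. Krt8, the main type II keratin of simple epithelia, was at 195, 253, 245 and 335 RPM per kilobase in that order. For Krt8 and Krt18 alike, the library of Sirt6 siRNA with TNF was the lowest of the 4 and that of control siRNA in medium the highest.

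Krt7, a type II keratin of glandular and simple epithelia that is scarce in normal colon, was at 11.7 RPM per kilobase with Sirt6 siRNA and TNF, 18.6 with Sirt6 siRNA in medium, 9.05 with control siRNA and TNF and 12.3 with control siRNA in medium. Its level per kilobase depends on the length used: the longest Krt7 transcript has 4094 bases, and with the median transcript of 690 bases its mean over the 4 libraries was 76.7 in place of 12.9 RPM per kilobase. The transcript of 690 bases is not annotated as protein-coding, while that of 4094 bases and another of 642 bases are. Krt20, the keratin of the intestinal surface, had 2, 2, 0 and 5 reads in the order of libraries above. The count of 0 with control siRNA and TNF has an interval that reaches 0.197 normalised RPM. The floor of 3 reads, set for a count of 0, is 0.160 normalised RPM in that library. Krt20 was the 1 gene of the 10 that did not pass the filter on low values, so 9 entered the comparisons between libraries.

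**Figure D1:**
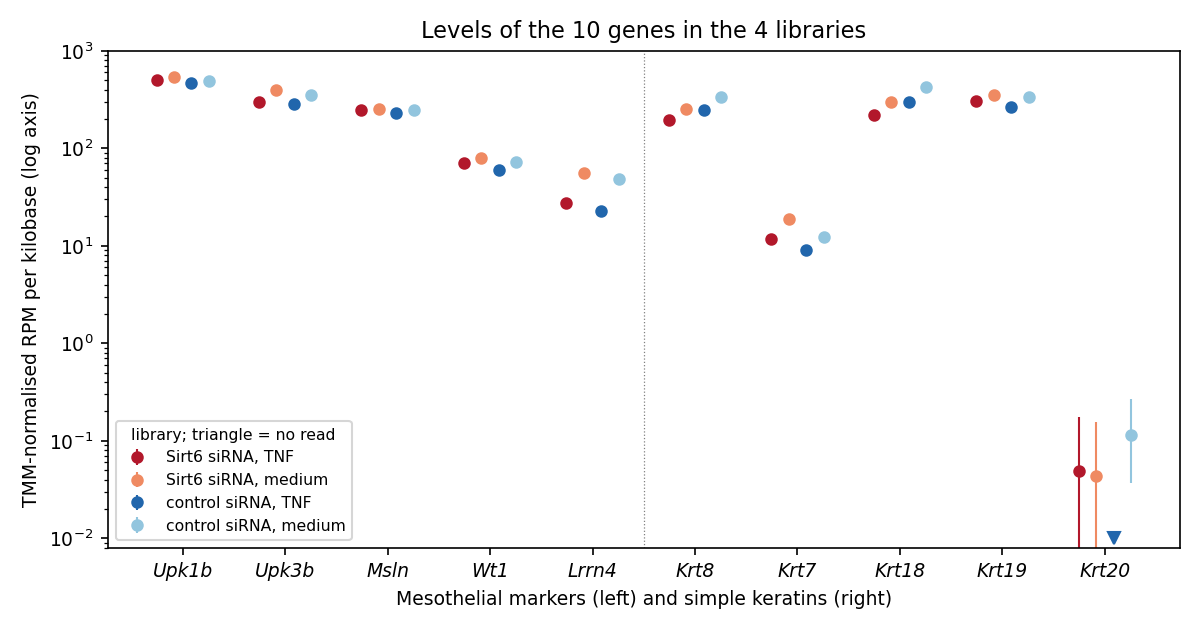
TMM-normalised RPM per kilobase (log axis) of the 10 genes in each of the 4 libraries, with 95% intervals of counting error where they are wider than the point. Upk1b, Upk3b, Msln, Krt8, Krt18 and Krt19 lie between 195 and 534 RPM per kilobase, and Krt20 has at most 5 reads in a library.

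Averaged over the 4 libraries and with the longest transcript of each gene, the order of levels per kilobase was Upk1b (498), Upk3b (333), Krt19 (313), Krt18 (311), Krt8 (257), Msln (245), Wt1 (70.5), Lrrn4 (38.4), Krt7 (12.9) and Krt20 (0.052). The plot of the levels by library shows 6 genes in a close upper group. Neighbours within that group from Upk3b to Msln had overlapping ranges over the libraries. Within libraries, Upk1b was above Upk3b and Krt18 above Krt8 in 4 of 4, Upk3b above Krt19 and Krt8 above Msln in 3, and Krt19 above Krt18 in 2. From Msln down, no neighbours in the order overlapped. The order depends on the length used: with the median transcript the means were 802 RPM per kilobase for Upk1b, 675 for Msln, 599 for Krt19, 140.2 for Wt1 and 76.7 for Krt7, which puts Msln and Krt19 above Upk3b and Krt7 above Lrrn4, while Upk3b, Krt18, Krt8, Lrrn4 and Krt20 kept their values. The median lengths of Msln (784 bases), Krt19 (823) and Krt7 (690) are those of transcripts not annotated as protein-coding, and that of Upk1b averages in such a transcript. With the longest transcript the 6 upper genes ranked between 158 and 404 of 27928 genes, within the top 1.45%, in a table where 897 genes (3.21%) reached 100 RPM per kilobase. Wt1 ranked 1256, Lrrn4 2211 and Krt7 5565. The 10 genes together took 0.409% and 0.496% of normalised reads with Sirt6 siRNA (TNF, then medium), and 0.401% and 0.497% with control siRNA (TNF, then medium).

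Part of the Krt8 signal could not be assigned with certainty. Of the 50-base stretches of Krt8 transcripts, 29.7% also occur in another gene, mostly (26.9%) in the pseudogene Krt8-ps. The share was at most 2.88% in the other 9 genes, the highest being Msln, and it was 0 for Upk3b, Upk1b, Wt1, Lrrn4, Krt19 and Krt20. Exons of Krt8 overlap Gm36026 on the opposite strand over 5.16% of their bases and those of Krt7 overlap Gm671 over 1.09%, and the library kit does not mark strand. The sources used here do not say how reads that match several genes were counted.

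The colonocyte label was set against markers in lists that were chosen with earlier results known. Beside the counts of listed genes that reached 1 RPM stands the share over all genes, 15274 of 29179. Of 30 colonocyte and intestinal genes, 6 reached 1 RPM in at least 1 library and 9 had no read. Cdx2, the transcription factor of intestinal identity, had 2 reads, all with control siRNA in medium, and Vil1, which encodes the brush border protein villin, had 4 reads, all with control siRNA and TNF. The transcription factor genes Cdx1 and Hnf4a were among those with no read, so these defining markers of intestinal epithelium were absent or near absent at this depth. The highest of the list per kilobase was the stem cell receptor gene Lgr5, at 1.39 RPM per kilobase. The intestinal genes summed to between 19.5 and 23.9 normalised RPM per library.

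General epithelial genes were thinly read as well, with a median level of 0.061 RPM per kilobase. Of 24 listed, 10 reached 1 RPM in at least 1 library, which is not far below the share over all genes. Epcam, which encodes a surface protein of most simple epithelia, had 2 reads, all with Sirt6 siRNA and TNF. Cdh1, which encodes E-cadherin, had 241 reads with Sirt6 siRNA and TNF, 273 with Sirt6 siRNA in medium, 218 with control siRNA and TNF and 312 with control siRNA in medium, a mean level of 2.71 RPM per kilobase. The highest were Spint1 and St14, a protease inhibitor and its membrane protease, at 6.76 and 3.62 RPM per kilobase. Both are below the level of Krt7 with the longest transcript.

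Of 20 other mesothelial genes, 17 reached 1 RPM. The highest were Pdpn, a mucin-type surface glycoprotein, at 133 RPM per kilobase, the matrix protein gene Efemp1 at 112 and the protein C receptor gene Procr at 83.4. Bnc1, a zinc finger factor, and Gpm6a, a membrane glycoprotein, were at 9.84 and 28.7 RPM per kilobase. Muc16, which encodes the mucin that mesothelin binds, had between 87 and 158 reads per library. Calb2, which encodes calretinin, a much used mesothelial marker, had no read in any of the 4 libraries, nor did Tcf21. Rarres2, named like the next 3 genes after its value was seen, had between 4 and 13 reads per library and did not reach 1 RPM. Nkain4, Rspo1 and Tbx18 did, at mean levels of only 1.26, 1.93 and 2.93 RPM per kilobase. The median of the list was 13.6 RPM per kilobase.

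The other uroplakins did not accompany Upk1b and Upk3b. Upk2 and Upk3a, partners of the bladder plaque, had no read in any library. Upk1a had 1 and 6 reads with Sirt6 siRNA (TNF, then medium), and 7 and 19 with control siRNA (TNF, then medium). Upk3bl, the neighbour of Upk3b on chromosome 5, had 2 reads in all, and Upk3b shared no 50-base stretch with another gene. Of 10 listed uroplakin and urothelial genes, 3 reached 1 RPM, the highest being the transcription factor gene Gata3 at 1.15 RPM per kilobase.

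Some mesenchymal genes were abundant beside the markers described, and others were not. Of 27 listed, 24 reached 1 RPM, and Vim, which encodes vimentin, was at 652 RPM per kilobase, above Upk1b. The matrix genes Fn1, Sparc and Col1a1 were at 611, 589.9 and 513 RPM per kilobase. These are the highest of the list, whose median was 11.6 RPM per kilobase. Among genes named after their values were seen, Col1a2 was at 11.6, and the receptor genes Pdgfra and Pdgfrb were at 0.598 and 1.77 RPM per kilobase. Of 16 immune genes, 3 reached 1 RPM and 6 had no read. Ptprc, the common leukocyte antigen, had 4 and 4 reads with Sirt6 siRNA (TNF, then medium) and 0 and 0 with control siRNA (TNF, then medium). The macrophage genes Csf1r and Cd68 were read in all 4 libraries, with between 211 and 289 reads and between 121 and 169 reads, and Itgam had between 22 and 36. Of 12 endothelial genes 6 reached 1 RPM, near the share over all genes, led by the adhesion molecule gene Esam at 20.2 RPM per kilobase. Of 8 glial and neural crest genes 2 did, led by Ncam1 at 14.0. In RNA from whole cultures, fewer cells of a type and less RNA per cell cannot be told apart, so these levels do not say whether the markers lie in the same cells.

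**Figure D2:**
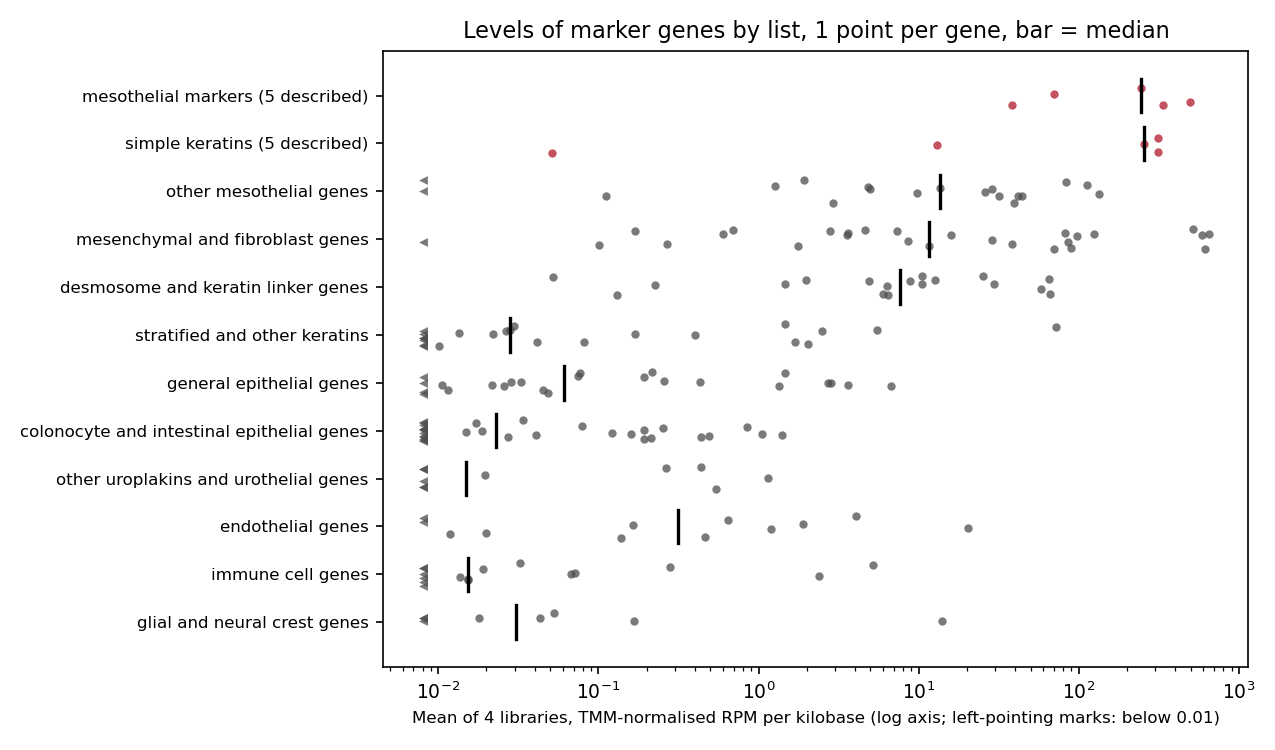
Mean level over the 4 libraries in TMM-normalised RPM per kilobase (log axis), 1 point per gene with a known length, by marker list, with the list median as a bar. The median is 245 for the mesothelial markers described and 257 for the simple keratins, against 13.6 for other mesothelial genes, 11.6 for mesenchymal genes and 0.0230 for colonocyte and intestinal genes.

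Keratins outside the simple set were mostly read thinly. Of 23 stratified and other keratins, 7 reached 1 RPM and 5 had no read. Krt14, a type I keratin of basal layers, was the exception, at 71.6 RPM per kilobase with Sirt6 siRNA and TNF, 76.3 with Sirt6 siRNA in medium, 68.1 with control siRNA and TNF and 72.2 with control siRNA in medium. Its usual type II partner Krt5 had 0, 4, 2 and 2 reads in the same order. After Krt14 came Krt16 at 5.49, Krt80 at 2.50 and Krt10 at 2.03 RPM per kilobase.

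Because type II and type I chains join in equal amounts, the balance of their transcripts was computed per library. Krt7 and Krt8 made up 28.5% and 29.4% of the summed level per kilobase of the 5 keratins with Sirt6 siRNA (TNF, then medium), and 31.1% and 31.3% with control siRNA (TNF, then medium). Type I transcripts were thus in excess in all 4 libraries, and remained so when the 27 listed keratins of known type were summed (25.8%, 27.1%, 28.5% and 29.3% type II in the same order). The ratio of Krt8 to Krt18 was 0.898 with Sirt6 siRNA and TNF (0.869 to 0.928), 0.840 with Sirt6 siRNA in medium (0.818 to 0.863), 0.820 with control siRNA and TNF (0.796 to 0.845) and 0.786 with control siRNA in medium (0.768 to 0.805). These intervals do not cover the 29.7% of Krt8 stretches shared with other genes (0.72% for Krt18). Whether Krt8 truly lies below Krt18 is therefore not settled.

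The other keratins shifted more against this pair. Krt19 over Krt18 was 1.39 with Sirt6 siRNA and TNF (1.35 to 1.44) and 1.16 with Sirt6 siRNA in medium (1.13 to 1.19), against 0.883 with control siRNA and TNF (0.855 to 0.911) and 0.787 with control siRNA in medium (0.768 to 0.807). Both Sirt6 siRNA libraries had a higher ratio than both control siRNA libraries. The longest transcripts of Krt19 and Krt18 are the only ones annotated as protein-coding. With them the ratio was above 1 with Sirt6 siRNA and below 1 with control siRNA. With the median transcript it was 2.66 and 2.22 with Sirt6 siRNA (TNF, then medium), and 1.69 and 1.51 with control siRNA (TNF, then medium). The Krt19 median is the length of an 823-base transcript not annotated as protein-coding. Which transcripts were present was not tested. Krt7 over Krt8 was 0.0601 and 0.0735 with Sirt6 siRNA (TNF, then medium), and 0.0369 and 0.0368 with control siRNA (TNF, then medium). With the median transcript these were 0.356 and 0.436 with Sirt6 siRNA, and 0.219 and 0.218 with control siRNA. The intervals of the Sirt6 siRNA libraries lay above those of the control siRNA libraries for both ratios. Such ratios were not computed for pairs of other genes, so no share stands beside these separations. Of single genes compared, 12.9% were higher in both Sirt6 siRNA libraries than in both control siRNA libraries.

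**Figure D3:**
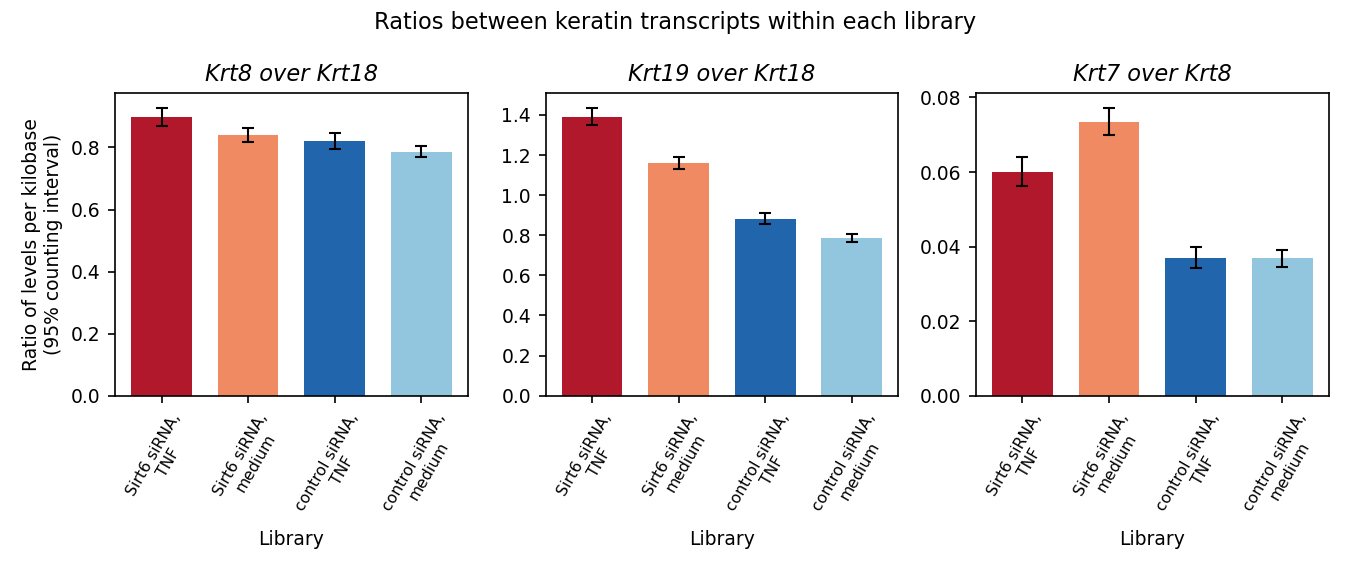
Ratios of keratin transcript levels per kilobase within each of the 4 libraries, with 95% intervals of counting error and each axis starting at 0. Krt8 over Krt18 stays between 0.786 and 0.898, computed with the longest transcripts, while Krt19 over Krt18 and Krt7 over Krt8 are higher in both Sirt6 siRNA libraries than in both control siRNA libraries.

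The first comparison between libraries asked what TNF changed. Of the 9 genes compared, Lrrn4 was the 1 that passed the size rule, and it fell under both siRNAs. That is 1 of 9 lower with Sirt6 siRNA, where 1.49% of the 15274 genes were called lower and 2.17% higher, and 1 of 9 lower with control siRNA, where 1.24% were called lower and 2.29% higher. Lrrn4 had 102 normalised RPM with Sirt6 siRNA and TNF against 205 with Sirt6 siRNA in medium, a 2.01-fold lower level (log2 -1.01, -1.08 to -0.94). With control siRNA it had 85.1 normalised RPM with TNF against 179 in medium, a 2.11-fold lower level (log2 -1.07, -1.16 to -0.99). Of all genes compared, 1.51% had a ratio as low as that of Lrrn4 or lower with Sirt6 siRNA and 1.05% with control siRNA. The call with Sirt6 siRNA lay at the edge of the size rule, and with the size factors of DESeq2 its log2 ratio was -0.999 and did not pass. At a 1.5-fold rule Krt7 passed too with Sirt6 siRNA, which makes 2 of 9 lower where 5.36% of genes were lower and 4.43% higher, and Lrrn4 remained the 1 of 9 with control siRNA, where 4.46% were lower and 4.94% higher.

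The remaining 8 genes had smaller ratios, most of them below 1. Krt7 had log2 ratios for TNF of -0.67 (-0.78 to -0.56) with Sirt6 siRNA and -0.44 (-0.58 to -0.31) with control siRNA. Krt18 had -0.47 (-0.52 to -0.43) and -0.51 (-0.55 to -0.47), and Krt8 had -0.38 (-0.42 to -0.33) and -0.45 (-0.49 to -0.41), in the same order. These keratins were thus between 1.30-fold and 1.59-fold lower with TNF in the 2 library pairs. Krt19 had log2 ratios of -0.21 (-0.25 to -0.17) with Sirt6 siRNA and -0.35 (-0.39 to -0.30) with control siRNA.

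Among the mesothelial markers, Upk3b had log2 ratios for TNF of -0.40 (-0.42 to -0.37) with Sirt6 siRNA and -0.32 (-0.35 to -0.29) with control siRNA. Wt1 had -0.20 (-0.26 to -0.15) and -0.28 (-0.34 to -0.22) in the same order. Upk1b was nearly level, at -0.083 and -0.086. Msln had -0.0088 (-0.045 to 0.028) with Sirt6 siRNA, where the interval holds no change and the sign turns with the size factors of DESeq2 (log2 0.00030), and -0.10 (-0.14 to -0.061) with control siRNA. The median log2 ratio of the 9 genes was -0.38 with Sirt6 siRNA and -0.35 with control siRNA, against -0.010 and -0.00093 over all genes compared. With many reads the intervals are narrow. That of Upk1b left out no change under both siRNAs, though 39.6% of genes compared had a ratio as low or lower with Sirt6 siRNA and 36.4% with control siRNA.

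Both TNF libraries were below both medium libraries for 7 of the 9 genes, where 28.6% of all genes compared were lower in this way and 27.9% higher. Upk1b and Msln were the genes whose groups overlapped. An additive model of siRNA and TNF, in which the other siRNA stands in for a second library, called the same 7 genes lower with TNF by edgeR's quasi-likelihood test (Benjamini-Hochberg adjusted p between 5.73e-87 for Lrrn4 and 1.82e-06 for Wt1), where 15.1% of genes were called lower and 14.4% higher. Upk1b and Msln were not called (edgeR adjusted p 0.067 and 0.33). The spread behind these p-values is pooled over genes and comes from how far the 2 responses differ, with 1 residual degree of freedom, so it is no replicate spread.

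**Figure D4:**
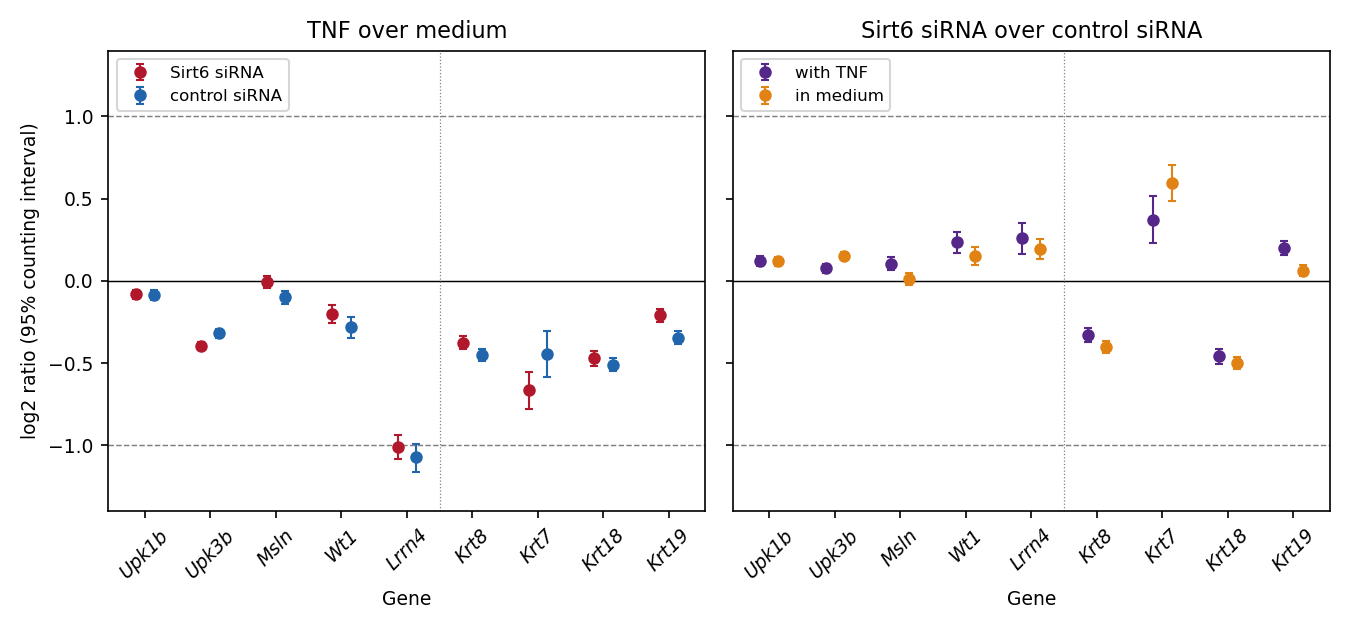
Log2 ratios of the 9 genes compared, with 95% intervals of counting error, for TNF over medium (left) and Sirt6 siRNA over control siRNA (right); dashed lines mark 2-fold. Lrrn4 reaches the lower line for TNF under both siRNAs, and for Sirt6 siRNA Krt8 and Krt18 lie below 0 and Krt7 above 0 with TNF and in medium, inside the lines.

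The genes of the lists were set beside these values. Of 17 other mesothelial genes compared, Cldn15, a claudin of tight junctions, fell under both siRNAs (log2 -1.03 with each), and Rspo1, a secreted Wnt agonist named here after its value was seen, fell with Sirt6 siRNA (log2 -1.49). Their median log2 ratio was -0.34 with Sirt6 siRNA and -0.30 with control siRNA. Pdpn, Procr and Slpi had ratios on the other side, with log2 0.46, 0.64 and 0.56 with Sirt6 siRNA and 0.33, 0.54 and 0.99 with control siRNA. So did Cdh11 (0.55 and 0.45) and, with intervals that hold no change, Thbd (0.15 and 0.046), both named after their values were seen. Of 16 desmosome and keratin linker genes compared, Evpl, which encodes envoplakin, fell under both siRNAs (log2 -1.22 with Sirt6 siRNA and -1.20 with control siRNA). The linker gene Ppl had log2 -0.49 and -0.46 and the junction gene Jup -0.88 and -0.88, while Plec, which encodes the linker plectin, had -0.036 and -0.056. Among genes named after their values were seen, Dsp had -0.98 and -0.98, while Dsg2 had 0.42 and 0.50 and Dst 0.28 and 0.26. The list's median was -0.039 with Sirt6 siRNA and -0.062 with control siRNA. Of 7 stratified and other keratins compared, 1 fell with Sirt6 siRNA (Krt15, log2 -1.47, 31 reads against 101) and 0 passed with control siRNA (Krt15 -0.93). Krt80 had -0.71 and -0.83, while Krt17 had 0.38 and 0.63. Krt15 and Krt17 were named after their values were seen. The median of these keratins was -0.091 with Sirt6 siRNA and -0.084 with control siRNA.

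Summed levels of other cell type lists were compared in the same libraries. The 27 mesenchymal genes summed to 13508 normalised RPM with TNF against 14576 in medium with Sirt6 siRNA, and to 12993 with TNF against 13981 in medium with control siRNA. Of the 24 compared, 2 fell with Sirt6 siRNA (Des and Cnn1, muscle genes named after their values were seen) and none passed with control siRNA. The list's median log2 ratios were -0.16 and -0.18. The 16 immune genes summed to between 17.4 and 21.5 normalised RPM and the 12 endothelial genes to between 81.3 and 85.0 in the 4 libraries. The 8 glial and neural crest genes, mostly Ncam1, summed to 89.0 with TNF against 116 in medium with Sirt6 siRNA, and to 68.5 with TNF against 98.0 in medium with control siRNA. Of 10 general epithelial genes compared, 0 passed with Sirt6 siRNA. With control siRNA 2 rose (Ehf, 34 reads with TNF against 15 in medium, and Elf5, 21 against 8) and 1 fell (Ocln, 2 against 32). Ehf reached 1 RPM only with TNF, Elf5 only with control siRNA and TNF, and Ocln only in medium. Each thus passed the filter through the side where it was high, and these calls carry no weight. Of 6 colonocyte genes compared, 0 passed under either siRNA. The part of these shifts in the ratios of the markers was not tested.

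The second comparison asked what silencing of Sirt6 changed, once between the TNF libraries and once between the medium libraries. None of the 9 genes passed the size rule with TNF, where 0.393% of genes were called higher and 0.655% lower, or in medium, where 0.491% were called higher and 0.524% lower. The largest ratios within the set were those of keratins, and they had opposite signs. Krt18 had 313 normalised RPM with Sirt6 siRNA and TNF against 429.6 with control siRNA and TNF (log2 -0.46, -0.51 to -0.41). In medium it had 433 with Sirt6 siRNA against 612 with control siRNA (log2 -0.50, -0.53 to -0.46). Krt8 had log2 ratios of -0.33 (-0.37 to -0.28) with TNF and -0.40 (-0.44 to -0.37) in medium.

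Krt7 lay on the other side. It had 48.0 normalised RPM with Sirt6 siRNA and TNF against 37.1 with control siRNA and TNF (log2 0.37, 0.23 to 0.51), and in medium 76.2 with Sirt6 siRNA against 50.5 with control siRNA (log2 0.59, 0.49 to 0.70). Of all genes compared, 4.92% had a ratio as high or higher with TNF and 2.14% in medium. At a 1.5-fold rule Krt7 passed in medium, as 1 of 9 where 1.48% of genes were higher and 1.71% lower, and 0 of 9 passed with TNF, where 1.25% were higher and 2% lower. For Krt18 5.46% had a ratio as low or lower with TNF and 3.33% in medium, and for Krt8 9.23% and 4.94%. Krt19 had log2 ratios of 0.20 (0.16 to 0.24) with TNF and 0.063 (0.027 to 0.099) in medium.

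The mesothelial markers had small ratios above 1 in both comparisons. With TNF, log2 ratios for Sirt6 siRNA were 0.26 for Lrrn4, 0.23 for Wt1, 0.12 for Upk1b, 0.10 for Msln and 0.078 for Upk3b. Of all genes compared, 8.88% had a ratio as high as that of Lrrn4 or higher, and 31.0% as high as that of Upk3b. In medium the log2 ratios were 0.19 for Lrrn4, 0.15 for Wt1 and Upk3b, 0.12 for Upk1b and 0.012 for Msln, whose interval (-0.024 to 0.047) holds no change. The median over the 5 markers was 0.12 with TNF and 0.15 in medium, against -0.0030 and 0.00028 over all genes compared.

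Both Sirt6 siRNA libraries were above both control siRNA libraries for 2 of the 9 genes, Upk1b and Msln, and below them for 0, where 12.9% of all genes compared were higher in this way and 12.9% lower. The separation of these 2 genes depends on the scaling. By library totals alone, Sirt6 siRNA with TNF lay below control siRNA in medium for both (Upk1b 937 against 940 RPM, Msln 528 against 543 RPM). For Krt8, Krt18 and Krt7 the groups overlapped, since the Sirt6 siRNA library in medium lay above the control siRNA library with TNF, and for Krt7 the Sirt6 siRNA library with TNF lay below the control siRNA library in medium. In the additive model 6 of 9 genes were called higher with Sirt6 siRNA (Krt7, Lrrn4, Wt1, Upk1b, Upk3b and Krt19) and 2 lower (Krt8 and Krt18), where edgeR called 3.43% of genes higher and 3.16% lower. The edgeR adjusted p was 1.21e-28 for Krt18, 2.72e-17 for Krt8 and 2.41e-10 for Krt7, and between 0.00061 and 0.022 for the other 5. DESeq2, fitted to the same model, kept 3 of these 8 calls, those of Krt18, Krt8 and Krt7 (DESeq2 adjusted p 1.86e-11, 1.21e-06 and 0.0064), and gave adjusted p-values between 0.18 and 0.59 for the other 5.

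Beside these ratios, 0 of 24 mesenchymal genes passed the size rule between the medium libraries, and 1 was lower with Sirt6 siRNA between the TNF libraries (Cnn1, log2 -1.68), with medians of 0.049 with TNF and 0.037 in medium. Of 17 other mesothelial genes, 1 was lower with Sirt6 siRNA between the TNF libraries (Rspo1, log2 -1.04) and 0 passed in medium, with medians of 0.070 and 0.014. Acta2, a smooth muscle actin gene also named after its value was seen, had log2 ratios of -0.49 with TNF and -0.58 in medium. Of the 16 desmosome and linker genes, Dsc2, a desmosomal cadherin gene, was lower with Sirt6 siRNA between the TNF libraries (log2 -1.63, 9 reads with Sirt6 siRNA against 28 with control siRNA). Dsc2 reached 1 RPM only with control siRNA, the side where it was high. Ppl had log2 -0.30 with TNF and -0.27 in medium. Among genes named after their values were seen, Dsp had -0.68 and -0.68 and Dsg2 -0.48 and -0.40, while Fbf1 had 0.16 and 0.13. The list's median was -0.071 with TNF and -0.13 in medium. The part of these genes in the keratin ratios was not tested.

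The third comparison set the TNF ratio with Sirt6 siRNA against that with control siRNA. None of the 9 genes passed, at a difference of at least 1 on the log2 scale, where 0.596% of genes were called higher and 1.08% lower. The differences ran between -0.22 for Krt7 (-0.40 to -0.047) and 0.13 for Krt19 (0.079 to 0.19). Those of Lrrn4 (0.066, -0.044 to 0.18), Krt18 (0.039, -0.021 to 0.098), Wt1 (0.080, -0.0031 to 0.16) and Upk1b (0.0028, -0.037 to 0.043) had intervals that hold 0. Upk3b (-0.077), Krt8 (0.074) and Msln (0.091) had small differences whose intervals leave out 0.

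Genes with a pattern most like that of Lrrn4 and of Krt18 were sought by the Euclidean distance of log2 levels, each centred on its mean over the 4 libraries, among 12927 genes with at least 50 reads in each library. Lrrn4 was taken as the member with the widest range (1.27 on the log2 scale). Its nearest genes were Cldn15 at a distance of 0.046, Fgf18 at 0.055, Tnrc18 at 0.078, Dyrk1b at 0.11 and Fam13c at 0.11. Cldn15 had 56.8 and 116 normalised RPM with Sirt6 siRNA (TNF, then medium), and 47.5 and 97.0 with control siRNA (TNF, then medium), so that both TNF libraries were below both medium libraries as for Lrrn4. The genes nearest to Krt18 were Fam46b at 0.034, Gstm1 at 0.051, Camk2n1 at 0.066, Loh12cr1 at 0.067 and Cd97 at 0.086. Krt8 came at rank 10 with a distance of 0.14, Krt19 at rank 4083 (0.65) and Krt7 at rank 11760 (0.97). With 4 libraries such a pattern rests on few values.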

How the data were processed

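RNA-seq of 4 YAMC libraries, 1 per group, was used. The deposited table gives read counts per gene, per the file headers. Its columns headed RPKM equal the counts scaled to the library total with no gene length, within 0.0005, so these deposited values are RPM and were used only for that check. CASAVA, Bowtie 1.0.1 and edgeR are named in the submitters' processing notes; the genome build, annotation and read counter are not given in the sources used here. Polyadenylated RNA was sequenced with a kit that does not mark strand, per the labels' protocols.

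The members and lists were chosen with earlier results of these data known. Of 29179 genes, the 15274 that reached 1 RPM in any library were compared. Libraries were scaled by TMM (edgeR 4.0.16, R 4.3.3), and log2 ratios used a prior count of 2. The size rule asked for a 2-fold or larger ratio and for an exact conditional binomial 95% interval without 1 in it. For the difference of TNF responses it asked for a log2 size of 1 or more and for a delta-method interval (counts plus 0.5) without 0 in it. Levels have exact Poisson intervals. The additive model was fitted with edgeR's quasi-likelihood test (common biological coefficient of variation 0.039) and with DESeq2 1.42.0. Lengths came from GENCODE M21, in which 27928 of 29179 identifiers were matched. No protein sequences were used. Alternatives were other scaling, prior count 0.5, a 1.5-fold rule, no filter, a filter of 5 RPM and other lengths.

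All members were named. From each list the 4 genes highest per kilobase, genes that passed the size rule with like sign in both TNF or both siRNA comparisons, and preset defining markers could be named; other genes were named after their values were seen. Without molecular identifiers reads may be copies of 1 molecule, and so the intervals, and the floors of 3 reads (0.126 to 0.160 RPM), cover counting error only. The steps were tested on simulated counts. Python 3.11.15 was used with scipy 1.17.1.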

Additional observations from a re-analysis of the deposited data

Results flagged for a closer look

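Pparg, a nuclear receptor gene on the urothelial list, differed between the siRNAs in its response to TNF by 1.61 on the log2 scale. It had 28 reads with Sirt6 siRNA and TNF against 15 with Sirt6 siRNA in medium (log2 0.97), and 19 with control siRNA and TNF against 37 with control siRNA in medium (log2 -0.64). It drew notice because the difference of the responses exceeded 1 with an interval of counting error that leaves out 0. Of the 15274 genes compared, 0.596% passed this rule as higher and 1.08% as lower. In the library of Sirt6 siRNA in medium Pparg was at 0.624 normalised RPM, and there it also passed the size rule as lower than with control siRNA (log2 -1.27). With 1 library per group, the difference was not tested against a replicate spread.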

How the results depend on the processing

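With DESeq2 size factors 0 of the 9 genes passed the size rule for TNF with Sirt6 siRNA in place of 1, as Lrrn4 came to -0.999. At 1.5-fold 2 passed there, Krt7 being added (5.36% of genes lower), and 1 passed for Sirt6 siRNA in medium, Krt7 again (1.48% higher). For Sirt6 siRNA in the additive model DESeq2 called 3 of 9 in place of 8. The summed level of the 10 genes was 3234 RPM per kilobase with the median transcript length in place of 2079 with the longest, and the type II share of the simple keratins averaged 26.7% with that length, in place of 30.1%, and 27.7% over all 27 listed keratins, an alternative chosen after seeing the data. Of 36 member ratios, 1 changed sign with another scaling (Msln, TNF with Sirt6 siRNA), and no ratio shifted by more than 0.046. Scaled by totals alone, the additive model also called Upk1b and Msln lower with TNF (edgeR adjusted p 0.00035 and 0.029).

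Counts over all genes moved more. At 1.5-fold 1494 and 1435 genes passed for TNF (Sirt6 siRNA, then control siRNA) in place of 559 and 539, and 496 and 487 for Sirt6 siRNA (with TNF, then in medium) in place of 160 and 155. With the filter at 5 RPM these were 324, 282, 16 and 14, and with no filter 843 for TNF with Sirt6 siRNA, 388 and 402. DESeq2 called 1721 genes for TNF and 145 for Sirt6 siRNA. At 1.5-fold 45.2% of the calls for TNF with Sirt6 siRNA were higher, in place of 59.4%. No paired analysis was possible because each group has 1 library and the labels give no replicate numbers. Low reads limit Krt20, Epcam, Cdx2 and Vil1.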
